A study of Mus musculus with 12 samples.

Results

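The 10 genes followed here belong to the homeodomain families that pattern the neural tube. They are the paired box genes Pax3, Pax6 and Pax7, the LIM genes Lhx1, Lhx2 and Lhx5, the Iroquois genes Irx3 and Irx5, and Msx1 and Dbx1. A read was counted for a gene when it carried one of the 12 sample barcodes, a poly(A) tail measurement tagged PASS, and an alignment to an mRNA of that gene. By this rule all 10 genes had reads, out of 14042 genes in the series, and 6 of the 10 had the 30 reads over all libraries required for a test, as did 9309 genes of the series. The cells were wild-type P19, 1 line of mouse embryonal carcinoma. They were sampled without treatment (D0) and 2, 4 and 6 days (D2, D4 and D6) after transfer to NDiff 227 medium with 500 nM retinoic acid, with 3 biological replicates per day and 12 libraries in all. Poly(A) RNA was sequenced directly on nanopores, so that 1 read came from 1 RNA molecule and gave both its identity and its tail length. All libraries are bulk RNA, in which fewer cells of a type and less RNA per cell cannot be told apart.

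Homeodomain proteins divide the neural tube into progenitor domains along its dorsal to ventral axis. Pax3, Pax7 and Msx1 mark dorsal progenitors, Dbx1 marks progenitors near the middle of the axis, and Irx3 and Pax6 are spread more broadly and are limited by the ventral Sonic hedgehog signal. The LIM factors Lhx1 and Lhx5 are switched on in classes of interneurons as they leave the cell cycle, whereas Lhx2 serves the forebrain and eye and also marks a dorsal interneuron class. Retinoic acid is a natural signal for the hindbrain and spinal cord levels of the tube.

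The libraries held 120326 to 613756 kept reads, with the fewest at D2 (181932 ± 60407, SD, n = 3) and the most at D0 (527377 ± 82497, n = 3). Levels are given as CPM, the reads of a gene per 1e6 kept reads after trimmed-mean scaling. All 13 sequencing runs held 1 day each, so that run and day cannot be told apart. With library totals alone the median log2 fold change was 0.13 (D2 against D0), -0.02 (D4 against D2), 0.14 (D6 against D4) and 0.26 (D6 against D0). The share of called genes that were higher then went from 43.4% to 65.9% at D2 against D0 and from 65.2% to 55.2% at D4 against D2. It went from 47.9% to 69.0% at D6 against D4, and from 50.2% to 69.0% at D6 against D0. No called direction of the 10 genes turned with the scaling. The labelled cell state was checked with marker genes. All 3 tested pluripotency markers fell by D2, and the summed level of 8 such markers was 1820 ± 146 CPM in untreated cells and 6.79 ± 6.23 CPM at D2 (SD, n = 3), with no read at D4.

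**Figure D1:**
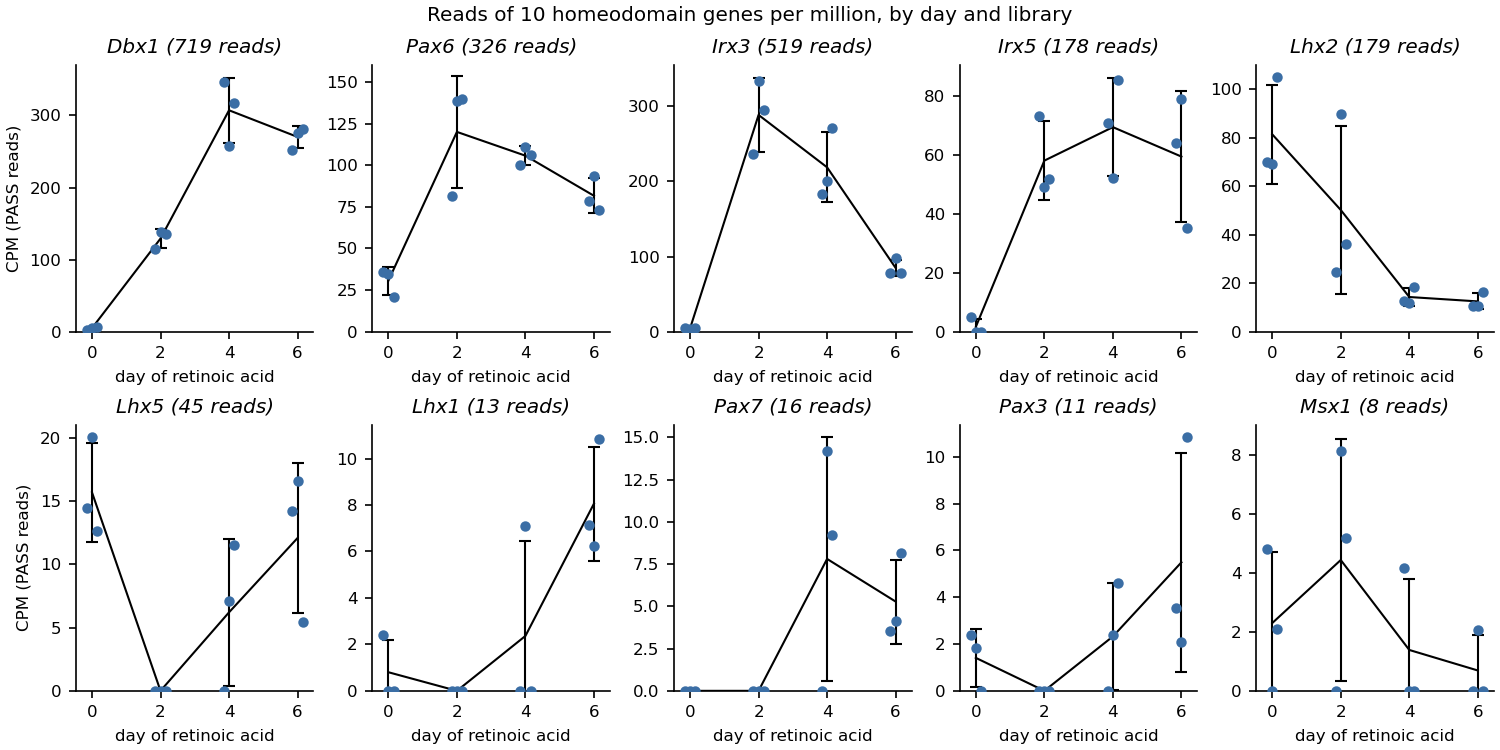
CPM (y axis, own scale per panel, from 0) of the 10 genes against the day of retinoic acid (x axis). Points are single libraries, and the line joins the means of 3 libraries with bars of 1 SD. Dbx1, Irx3, Irx5 and Pax6 sit higher in every library of D2, D4 and D6 than in any of D0, and Lhx2 sits lower at D4 and D6.

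Between D0 and D2 the set split. Dbx1, Irx3, Irx5 and Pax6 rose and Lhx5 fell, while the drop of Lhx2 did not pass the test. Over all genes 4.69% rose and 6.11% fell in this comparison (limma-voom, adjusted p at most 0.05 over 9309 genes). Between D2 and D4 only Dbx1 rose and only Lhx2 fell among the 6 tested genes, against 2.03% and 1.08% of all genes. From D4 to D6 Irx3 alone fell, against 4.39% of all genes. None of the 6 rose in that step, where 4.04% of all genes did, and the count was also 0 at an unadjusted p of 0.05 (limma-voom), which 2047 of all genes passed in either direction. At D6 against D0 the same 4 genes that had risen by D2 were higher and Lhx2 was lower, where 18.96% of all genes were higher and 18.8% lower.

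**Figure D2:**
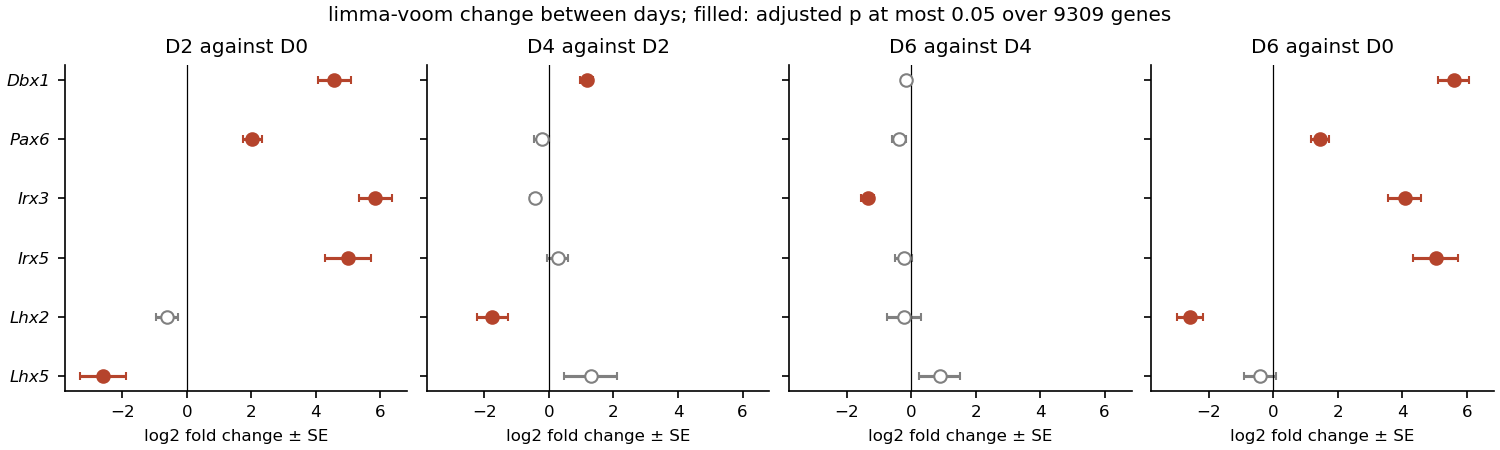
Log2 fold change (x axis) with its standard error for the 6 tested genes (y axis) in 4 comparisons of days, from limma-voom over 12 libraries. Filled points passed an adjusted p of 0.05, and most of them lie in the comparisons with D0.

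Dbx1, whose product sets apart the progenitors of V0 interneurons, had 719 reads, the most of the set. Its 3 libraries held 2.40, 5.47 and 6.30 CPM at D0, and 114.0, 138.6 and 134.8 CPM at D2. At D4 they held 345.9, 257.8 and 317.9 CPM, and at D6 252.7, 275.9 and 281.9 CPM. No library of D0 or D2 reached those of D4 or D6. The rise to D2 was 4.57 ± 0.50 on the log2 scale (SE; adjusted p = 1.08e-10, limma-voom), or 23.8-fold. A second rise of 1.17 ± 0.20 followed at D4 (adjusted p = 4.04e-05). D4 and D6 overlapped and did not differ beyond their spread (-0.15 ± 0.14, adjusted p = 0.586). By D6 Dbx1 stood 5.60 ± 0.48 above D0 (adjusted p = 3.51e-15).

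The Dbx1 gene lies at chr7:49631499-49636849 on the minus strand (mm10), and all its reads fell on its 1 transcript with a mapping quality of at least 10. RefSeq lists a promoter for 7 of the 10 genes (GRCm38.p6), and the part of that of Dbx1 before any annotated transcript, chr7:49636850-49637085, minus strand, is shown because Dbx1 had the most reads of the set. Capitals mark CCAAT, the box bound by NF-Y, searched on both strands together with AGGTCA, the half-site of retinoic acid receptors; the motifs do not overlap.

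Dbx1 promoter: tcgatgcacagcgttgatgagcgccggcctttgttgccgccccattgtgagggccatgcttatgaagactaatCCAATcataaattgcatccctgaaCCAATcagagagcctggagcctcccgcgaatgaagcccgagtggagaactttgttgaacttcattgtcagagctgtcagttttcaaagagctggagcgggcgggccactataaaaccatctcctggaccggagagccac

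The stretch held 2 CCAAT boxes and no AGGTCA. Among 32851 promoter windows of 300 bases, 37.4% held CCAAT and 16.3% held AGGTCA on either strand, and none of the 9 windows listed for these genes held AGGTCA.

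Pax6, a paired box factor of the broad middle and ventral progenitor territory and of the eye, was already present in untreated cells. It was at 36.1, 34.6 and 21.0 CPM at D0 and at 81.4, 138.6 and 140.0 CPM at D2. The D4 libraries held 100.0, 111.2 and 106.0 CPM and those of D6 78.3, 93.3 and 73.2 CPM. Every library after D0 was above the untreated ones, and D4 and D6 did not overlap. The rise to D2 was 2.03 ± 0.29 (log2, SE; adjusted p = 1.66e-07, limma-voom), and D6 remained 1.44 ± 0.27 above D0 (adjusted p = 1.65e-05). The steps from D2 to D4 (-0.22 ± 0.23, adjusted p = 0.702) and from D4 to D6 (-0.37 ± 0.22, adjusted p = 0.323) were not past the threshold. The gene spans chr2:105668900-105697364 on the plus strand over 11 transcripts with reads, of which the most used took 18.1%. Only 25.8% of its 326 reads had a mapping quality of at least 10. On those reads alone the rise to D2 was 0.49 ± 0.62 (adjusted p = 0.716) and that to D6 1.19 ± 0.48 (adjusted p = 0.0578, limma-voom). Neither call held without the reads of lower mapping quality. Reads were aligned to transcripts, and the share kept by this filter differed among those of Pax6. It kept 23.7% of the 59 reads of the most used transcript, 97.9% of the 48 reads of another and 0% of the 35 reads of a further transcript. The filter thus changed the mix of transcripts. Whether low mapping quality came from reads shared between Pax6 transcripts was not tested. With libraries thinned to equal depth the rise to D6 was 1.03 (adjusted p = 0.0759).

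The Iroquois genes both rose at the first step. Irx3, which takes part in placing the boundary between ventral domains, held 4.81, 3.65 and 4.20 CPM before treatment and 236.1, 334.2 and 295.6 CPM at D2. It then held 183.4, 201.1 and 271.8 CPM at D4 and 78.3, 97.5 and 78.6 CPM at D6. The D0 and D6 libraries each lay apart from all others, whereas those of D2 and D4 overlapped. Its rise to D2, 5.84 ± 0.51 on the log2 scale (adjusted p = 1.94e-14, limma-voom), had the largest fitted value among the 6 tested genes in that comparison. D4 was not different from D2 past the threshold (-0.42 ± 0.17, adjusted p = 0.187), except without D4 replicate 3 (-0.64, adjusted p = 0.0486) or with reads of all tags (-0.60, adjusted p = 0.0204). Irx3 then fell by 1.35 ± 0.19 from D4 to D6 (adjusted p = 4.73e-07), and was still 4.07 ± 0.52 above D0 (adjusted p = 2.03e-09). The 519 reads fell on 2 transcripts that share a 3′ end at chr8:91798525, minus strand, and 68.2% had a mapping quality of at least 10.

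Irx5, the neighbour of Irx3 on chromosome 8 (chr8:92357749-92361456, plus strand), had 2 reads in all at D0, both in replicate 1. It rose to 73.3, 48.9 and 51.9 CPM at D2, and held 70.9, 52.0 and 85.2 CPM at D4 and 64.1, 78.8 and 35.2 CPM at D6. The 3 treated days overlapped throughout. With 2 reads at D0 the ratio of D2 to D0 was 39.8, with a 95% counting interval of 10.1 to 343 (adjusted p = 2.84e-07, limma-voom), and that of D6 to D0 was 43.9 with an interval of 11.7 to 370 (adjusted p = 2.18e-08). Without D0 replicate 1, which held both reads, the fitted rise on the log2 scale was 5.91 ± 0.90 to D2, and to D6 it was 5.92 rather than 5.04, both still called. No step after D2 passed the threshold (D4 to D6 -0.23 ± 0.27, adjusted p = 0.679), and D6 was not tested against D2. The fall of Irx3 and the change of Irx5 between D4 and D6 were not tested against each other.

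Lhx2, a LIM factor of forebrain progenitors, went the other way. It was at 69.7, 69.3 and 105.0 CPM at D0, and at 24.4, 89.7 and 36.3 CPM at D2, where replicate 2 alone lay in the range of the untreated cells. D4 held 12.5, 11.8 and 18.4 CPM, and D6 10.7, 10.4 and 16.3 CPM. D4 and D6 overlapped and lay below all libraries of D0 and D2. The step from D0 to D2 was not called (-0.62 ± 0.33, adjusted p = 0.257, limma-voom). From D0 to D6 it fell by 2.59 ± 0.41 on the log2 scale (adjusted p = 4.76e-07, limma-voom). Of its steps only that from D2 to D4 was called (fell by 1.75 ± 0.47, adjusted p = 0.0181), and this call ended with libraries thinned to equal depth (-2.57, adjusted p = 0.129), without D2 replicate 2 (-1.20, adjusted p = 0.345) or without D4 replicate 2 (-1.64, adjusted p = 0.0851). All 179 reads fell on 1 transcript at chr2:38350759-38369733, plus strand.

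Lhx5, a LIM factor of interneurons and of the early forebrain, had no read at D2. It had 6, 11 and 6 reads at D0, or 14.4, 20.1 and 12.6 CPM, and none in any D2 library. It had 0, 3 and 5 reads at D4 and 4, 8 and 2 reads at D6. D0 and D6 overlapped, and the 3 D2 libraries were below both. Because D2 was the shallowest day, 0 reads there allow up to 5.35 CPM over the day. By reads summed over each day, Lhx5 was at least 2.985-fold lower at D2 than at D0 (adjusted p of the fitted change 0.00904, limma-voom). The call did not hold without D0 replicate 2 (-2.33, adjusted p = 0.0601), without D2 replicate 2 (-2.31, adjusted p = 0.0906) or without D2 replicate 3 (-2.50, adjusted p = 0.0578), where the fitted change stayed close to the -2.59 of all libraries. With reads of all tags the gap was wider, with 41 reads at D0, none at D2, 21 at D4 and 22 in the D6 libraries, and both the fall to D2 (fell by 3.29 ± 0.64 on the log2 scale, adjusted p = 0.000136) and the return at D4 (2.72 ± 0.67, adjusted p = 0.00804) passed the threshold. That step was not called under the PASS rule (1.30 ± 0.82, adjusted p = 0.458) or on PASS and SUFFCLIP reads (2.30, adjusted p = 0.0601). Under the PASS rule its level at D6 was not different from D0 past the threshold (-0.41 ± 0.49, adjusted p = 0.549).

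Lhx1, the closest relative of Lhx5 and a marker of newborn interneurons, was almost invisible under the PASS rule, with 13 reads: 1 in untreated cells, none at D2, 3 at D4 and 9 at D6. The per-read table held 324 reads of Lhx1 whatever their tag. Only 4.01% of them (95% Wilson interval 2.36 to 6.74%) were tagged PASS, whereas the median over 7331 genes with at least 80 reads was 80.2%. Most of the remainder, 237 reads or 73.2% (68.1 to 77.7%), carried SUFFCLIP, the tag the tail caller gives to reads whose 3′ end was clipped from the alignment. The median gene had 0.76% of such reads. Lhx1 ranked 17 of the 7331 genes by this share and was 1 of 38 genes above 50%. Among the other 9 genes Lhx5 followed with 28.6% (20.02 to 39.0%) and rank 75, Pax6 had 5.34%, and Dbx1, Irx3, Irx5 and Lhx2 had 0.229 to 1.30%. These intervals cover counting error only.

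**Figure D3:**
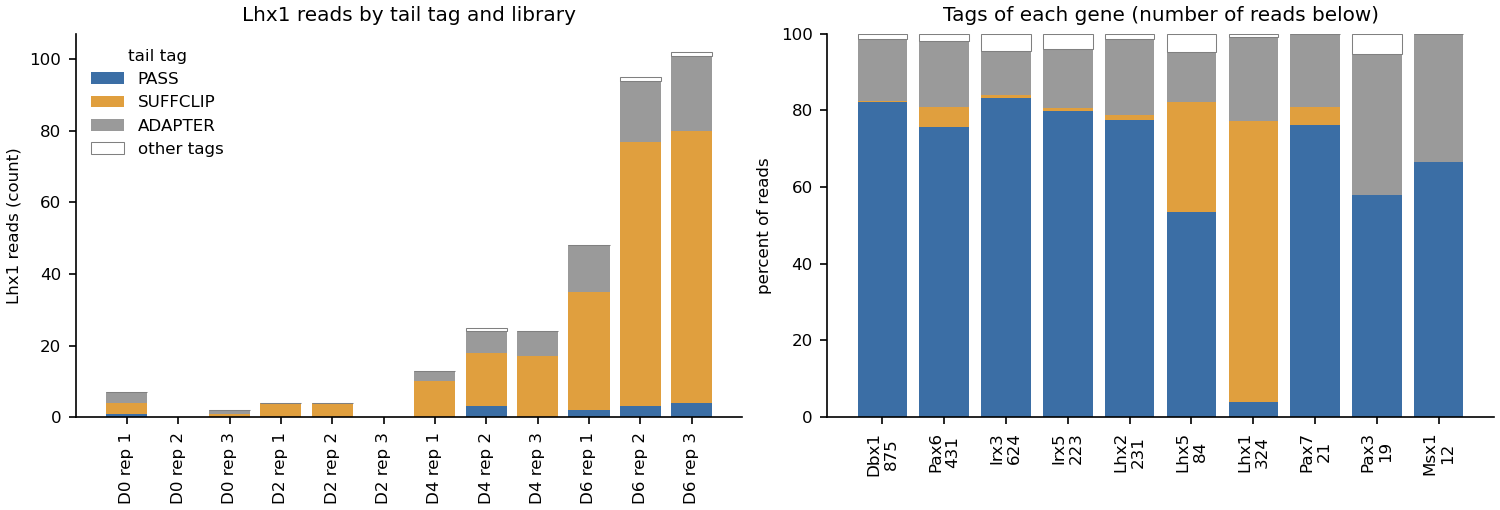
Left, number of Lhx1 reads (y axis) in each of the 12 libraries (x axis), divided by the tag of the tail caller. Right, percent of the reads of each of the 10 genes (y axis) with each tag, with the number of reads under the name. SUFFCLIP makes up most of Lhx1 and little of the others except Lhx5.

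When reads of all tags were counted, Lhx1 was a late riser. The 3 libraries held 7, 0 and 2 reads in untreated cells and 4, 4 and 0 at D2. At D4 they held 13, 25 and 24 reads, and at D6 48, 95 and 102. Per 1e6 reads of all tags, without trimmed-mean scaling, these were 5.11 ± 6.40, 13.9 ± 13.9, 42.7 ± 2.96 and 194.0 ± 52.4 (SD, n = 3). D0 and D2 overlapped, D4 lay above both and D6 above D4. In the fit on reads of all tags Lhx1 was 5.79 ± 0.62 higher at D6 than at D0 on the log2 scale (adjusted p = 2.3e-11, limma-voom), where 21.2% of all genes were higher. The value was 6.73 without D0 replicate 1 and 4.59 without D0 replicate 2, both still called. The step from D0 to D2 was not called (1.59 ± 0.84, adjusted p = 0.232, limma-voom), except without D2 replicate 3 (2.65, adjusted p = 0.0183). Without D0 replicate 2 this step was 0.39 (adjusted p = 0.826, limma-voom). The step from D4 to D6 was 2.01 ± 0.26 (adjusted p = 4.67e-08, 5.12% of all genes higher), and limma-trend gave 2.00 with an adjusted p of 0.125. The step from D2 to D4 was 2.20 ± 0.63 (adjusted p = 0.0292, 2.39% of all genes higher). It was not called by limma-trend (2.09, adjusted p = 0.098), on PASS and SUFFCLIP reads (1.85, adjusted p = 0.0829), without D2 replicate 1 (2.78, adjusted p = 0.0641), without D2 replicate 2 (2.66, adjusted p = 0.0927), without D2 replicate 3 (1.15, adjusted p = 0.308) or without D4 replicate 2 (2.15, adjusted p = 0.0634). All 237 SUFFCLIP reads stopped within 20 bases of the annotated 3′ end, as did 69.2% of the PASS reads, and their median tail was 133.5 nt against 114.7 nt for the 13 PASS reads. The choice to count these reads was made after the tags had been seen.

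The last 30 bases of 4 transcripts are shown 5′ to 3′ because that is where the Lhx1 reads stopped. Capitals mark a poly(A) signal, AATAAA or ATTAAA, or, for Lhx1, which has neither in this window, the closing run of A. The most used transcripts of Pax6 and Irx3, not shown, also hold neither signal in their last 30 bases. They are from GENCODE vM21 transcripts (GRCm38), at chr11:84518284-84518313 (minus strand) for Lhx1, chr5:120441194-120441223 (plus) for Lhx5, chr7:49631499-49631528 (minus) for Dbx1 and chr8:92361427-92361456 (plus) for Irx5.
Lhx1: aaaagtgttacaaggtttAAAAAAAAAAAA
Lhx5: gaaacaAATAAAgtatgtttttgtgtctac
Dbx1: ggacaaatgccaAATAAAaagtagaatgag
Irx5: aatatttaATTAAAggagattttaacataa

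The Lhx1 transcript ended in 12 A. Of 9231 tested genes whose main transcript could be read, 54 (0.585%) ended in at least 12 A, 56.6% held AATAAA in the last 30 bases, 13.6% held ATTAAA alone, and 29.7% held neither. The RefSeq model of Lhx1 ran 309 bases past this end, that of Lhx5 234 bases and those of Dbx1 and Irx5 0 bases. The longest extension of the set was that of Pax6, 1049 bases past its most used transcript, with 5.34% of SUFFCLIP reads. Over 7197 genes with at least 80 reads and a matched RefSeq gene, 37 had more than 50% SUFFCLIP reads. Of these 26 were among the 838 genes with a RefSeq model at least 100 bases longer (median share 1.99%), and 11 among the other 6359 (median 0.688%). Of the 40 genes with an A run and no such extension none was above 50% (median 0.289%, highest 7.37%), whereas 4 of the 11 genes with both features, Lhx1 included, were above 50%. Whether either feature accounts for the tags of Lhx1 was not tested.

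Pax7, Pax3 and Msx1 had too few reads for a test. Pax7, a dorsal progenitor factor, had no read in the 6 libraries of D0 and D2. It had 0, 6 and 4 reads at D4 and 1, 2 and 3 at D6, which puts D6 at least 2.55-fold above the level that 0 reads allow at D0. All 3 libraries of D6 were above those of D0, and the smallest p that an exact permutation test of 3 against 3 libraries can give is 0.1. Pax3, its close relative in dorsal progenitors and neural crest, had 2 reads in untreated cells, none at D2, 3 at D4 and 6 at D6, with overlapping libraries (D6 to D0 ratio 3.82, interval 0.683 to 38.7). With reads of all tags it had 4 reads at D0, none at D2, 4 at D4 and 11 in the D6 libraries, which lay above those of D0 (ratio 4.39, interval 1.30 to 18.9; exact two-sided permutation p = 0.1, the smallest possible). Msx1, a target of BMP signals in the roof plate, had 3, 3, 1 and 1 reads and no difference detectable at this depth.

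Summed over the 10 genes, 0.0130 ± 0.000913% of kept reads came from this set in untreated cells (SD, n = 3). The share was 0.0669 ± 0.0118% after 2 days, 0.0725 ± 0.0108% after 4 days and 0.0587 ± 0.00664% after 6 days. All libraries of D2 and D6 were above all of D0, with an exact two-sided permutation p of 0.1 in each case, the smallest possible, and 0.2 after adjustment over 4 comparisons. D2 and D4 overlapped (exact p = 0.6). From D4 to D6 the share dropped by 0.0138 points (exact p = 0.2), but with reads of all tags it rose by 0.002413 points (exact p = 0.9).

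The genes most like the 3 members with most reads were picked by Pearson correlation of log2 CPM over the 12 libraries among the 4980 non-member genes whose reads averaged 10 or more over the libraries. The libraries fall into 4 days and the genes of a library share its depth. For Dbx1 the closest were Hoxb2 (0.987), Hoxb8 (0.986) and Nr2f1 (0.985). For Irx3 they included Crabp1 (0.984), which encodes a cytoplasmic retinoic acid binding protein, and Selenoh (0.976). For Pax6 they included Socs2 (0.9495) and Crabp1 (0.945). Among the members Pax6 and Irx3 were closest (0.958), and Lhx2 and Dbx1 most opposed (-0.80).

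The other progenitor domain factors of the neural tube numbered 34, of which 11 were tested. At D6 against D0, 8 rose and 2 fell, where 18.96% of all genes rose and 18.8% fell. This count is no measure of the list, because genes such as Neurog1, Prdm12 and Pax2, with 0 reads at D0, reached the 30 reads only through the days at which they were high, and the same holds for genes without reads at D0 in the lists that follow. Among those that rose were Neurog1 (at least 55.6-fold over the level 0 reads allow at D0), Prdm12 (at least 13.2-fold) and Pax2 (at least 9.76-fold). These are proneural and dorsal to intermediate factors. Nkx6-1, a ventral factor, fell by 1.51 ± 0.61 on the log2 scale (adjusted p = 0.0421, limma-voom).

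Of 28 homeodomain factors of postmitotic spinal and hindbrain neurons 4 were tested, and 3 of them rose by D6 while none fell, against the same 18.96% and 18.8% of all genes. Uncx rose at least 25.5-fold and Lbx1, a dorsal interneuron factor, at least 6.79-fold. Of 18 forebrain and midbrain factors 3 were tested. Gbx2 (ratio 38.2, interval 6.35 to 1558) and Gbx1 (at least 7.21-fold) rose, and both act at and behind the midbrain to hindbrain border. Otx2, which specifies the forebrain and midbrain, fell by 4.20 ± 0.40 (log2, adjusted p = 1.88e-13, limma-voom), with 318 reads at D0 and 5 at D2, beside the fall of Lhx2.

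Among 35 genes of the dorsal BMP and Wnt signals 15 were tested, of which 7 rose and 2 fell by D6, again against 18.96% and 18.8% of all genes. Wnt7b rose at least 26.3-fold, Id3, a target of BMP, by 3.64 ± 0.24 (adjusted p = 4.57e-20, limma-voom), Gdf11 by 3.18 ± 0.67 (adjusted p = 0.000103) and Bmp7 by 2.45 ± 0.56 (adjusted p = 0.000299). Fst, an inhibitor of activin and BMP, fell by at least 31.7-fold, and Tcf7l1 fell by 2.10 ± 0.39 (adjusted p = 1.33e-05). Among other BMP targets, named after their values were seen, Id1 had a mean of 43.3 CPM at D0 and 40.4 CPM at D6, and Smad6 and Smad7 had 14 and 6 reads in the series. In the ventral Sonic hedgehog pathway 3 of 10 tested genes rose and none fell, which is near the 18.96% of all genes that rose. They were the coreceptors Gas1 (ratio 25.5, interval 4.07 to 1055) and Boc (2.86 ± 0.51, adjusted p = 6.5e-06) and the receptor Gpr161 (2.53 ± 0.57, adjusted p = 0.000235).

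LIM factors such as Lhx1 act with the cofactor Ldb1. Of 18 LIM cofactors and Groucho corepressors 11 were tested, and 4 rose and 3 fell by D6, where 18.96% of all genes rose and 18.8% fell. Ldb1 rose by 1.55 ± 0.26 on the log2 scale (adjusted p = 1.32e-06, limma-voom), and Ssbp3, which stabilises it, by 1.25 ± 0.18 (adjusted p = 7.22e-08). Of the Groucho family, Tle5 rose by 2.31 ± 0.24 (adjusted p = 3.4e-12, limma-voom) and Tle1 by 0.74 ± 0.26 (adjusted p = 0.018). Ldb2 fell by 3.19 ± 0.58 (adjusted p = 6.74e-06) and Lmo1 by 1.47 ± 0.31 (adjusted p = 0.00011).

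Markers of other cell states moved with these genes. By D6, when 18.96% of all genes were higher and 18.8% lower, 8 of 9 neural progenitor markers had risen and 1, Sox2, had fallen, and their summed level was 812.5 to 875.1 CPM in untreated libraries, 1115 to 1357 CPM at D2, 2637 to 2936 CPM at D4 and 2916 to 3350 CPM at D6. Its members did not move together: mean Fabp7 was 152.8 CPM at D4 and 546.8 CPM at D6, whereas mean Sox1 was 84.8 CPM at D2, 45.4 CPM at D4 and 28.9 CPM at D6. All 10 neuron markers rose by D6, and their sum was 562.6 to 581.5 CPM in untreated libraries, above every library of D2 (317.5 to 546.2 CPM). It was 1880 to 2138 CPM at D4 and 2987 to 3238 CPM at D6. Between D4 and D6, where Irx3 fell and Lhx1 of all tags rose, 6 of the 10 neuron markers rose and none fell, where 4.04% of all genes rose and 4.39% fell. Of 7 neural crest markers 2 were tested and 1 rose by D6, and their sum was 31.3 to 42.0 CPM at D0 and 51.9 to 89.4 at D6. The markers of mesoderm, endoderm and surface ectoderm were at or under 40.8 CPM in sum in every library, and none had the reads for a test. Sox10 and Tfap2b of the neural crest, T, Pax1, Myod1 and Myf5 of mesoderm, Sox17, Gata4 and Afp of endoderm and Krt5 and Krt14 of surface ectoderm had no read. The part of these cell states in the changes of the 10 genes was not tested.

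**Figure D4:**
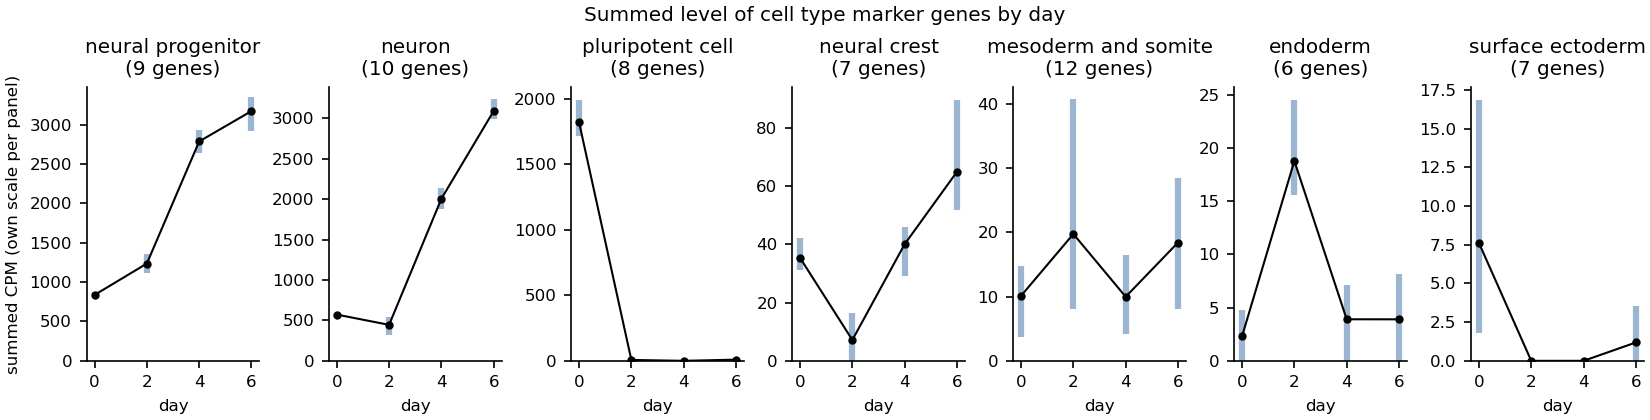
Summed CPM (y axis, own scale per panel, from 0) of 7 marker lists against day (x axis). Points are means of 3 libraries and bars span the lowest to the highest library. The pluripotency sum drops to near 0 at D2, the progenitor sum grows most between D2 and D4, largely through Vim (470.2 to 1708 CPM), and the neuron sum goes on rising to D6.

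Poly(A) tails were compared between D4 and D6, where most libraries had the 10 reads per gene required. Dbx1, Irx3, Irx5 and Pax6 qualified. The median Dbx1 tail was 106.6, 99.4 and 118.4 nt in the D4 libraries and 133.1, 116.5 and 129.1 nt at D6, with an overlap of 1 library on each side. The difference of 18.1 ± 7.84 nt (SE) was not past the threshold (adjusted p = 0.636, limma). Irx3 differed by 7.07 ± 11.5 nt (adjusted p = 0.926), Irx5 by -1.74 ± 12.3 nt (adjusted p = 0.992) and Pax6 by -16.2 ± 11.5 nt (adjusted p = 0.784). The signs of the last 3 turned under another summary, filter or with 1 library left out. Over 3254 genes 0.0% were called by limma, and 259 had an unadjusted p of at most 0.05.

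**Figure D5:**
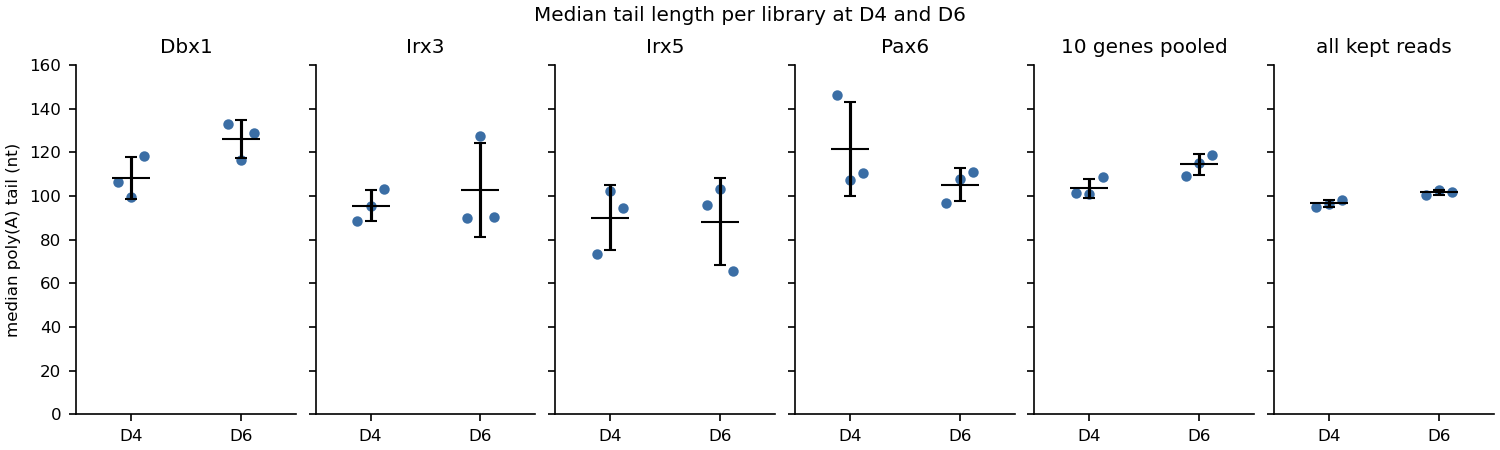
Median poly(A) tail in nt (y axis, from 0) per library at D4 and D6 for the 4 genes with enough reads, for the 10 genes pooled and for all kept reads. Points are libraries, and the black bars give the mean and 1 SD of 3. The pooled points of D6 all lie above those of D4, as do those of all kept reads.

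With the reads of the 10 genes pooled, the median tail was 101.4, 100.9 and 108.7 nt at D4 and 109.3, 115.4 and 119.0 nt at D6. The groups did not overlap and their means differed by 10.9 nt (exact two-sided permutation p = 0.1, the smallest possible). All kept reads moved the same way, from 96.7 ± 1.52 to 101.6 ± 1.03 nt (SD, n = 3; exact p = 0.1), and the 2 differences were not tested against each other. The make-up of the pool differed between the days. Irx3 gave it 247 reads at D4 (median tail 99.8 nt) and 98 at D6 (100.7 nt). Dbx1 gave it 330 (111.0 nt) and 308 (125.8 nt). The part of this change in the pooled difference was not tested. At D6 the quartiles of single reads were 84.8 to 182.4 nt for Dbx1 and 67.1 to 155.7 nt for Irx3. In the untreated cells Lhx2 tails had a median of 104.8 nt over 117 reads and Lhx5 tails 136.9 nt over 23 reads.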

How the data were processed

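The authors sequenced poly(A) RNA of 12 P19 libraries directly on nanopores, aligned the reads to the mouse transcriptome with minimap2 2.20 (mm10, per the labels), split them by barcode and measured each tail with Nanopolish. The deposited per-read table gives gene, transcript, position, tail length in nt, mapping quality as a score, barcode confidence as a fraction, and the tail caller's tag. A second deposited table holds the authors' DESeq2 log2 fold changes and adjusted p-values per gene and was not used. The per-read table gives no strand, so antisense partners of Irx3, Lhx1 and Pax6 could not be separated.

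Of 6306434 lines, 69 were malformed and 289260 had no barcode. Of the assigned lines 77.7% were tagged PASS. Reads tagged PASS on nuclear mRNAs, pseudogenes excluded, were tallied per gene, scaled by trimmed means (30% of ratios, 5% of levels), and genes with at least 30 reads were fitted with limma 3.58.1 (voom, pseudocount 0.5, R 4.3.3) over all 12 libraries, day as the factor, with Benjamini-Hochberg adjustment. Days were compared with the day before and D6 with D0. Median tails per gene with at least 10 reads in each library were tested with limma, and pooled values with exact two-sided permutation tests (scipy 1.17.1). Ratios have exact 95% counting intervals, and a day without reads was set to 3 reads over its 3 libraries. Replicate numbers were not used as a block.

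The 10 genes, the gene lists and the naming rule (from each list the 4 largest rises and 2 largest falls called at D6 against D0, and the 3 genes most correlated with each of the 3 members with most reads) were chosen with earlier results of these data known. Some genes that this rule names are not reported here. Alternatives covered scaling, filters, tags, mapping quality, barcode confidence, transcript unit, test, depth and left-out libraries.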

Additional observations from a re-analysis of the deposited data

Results flagged for a closer look

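Reads of Lhx1 that the PASS rule leaves out stood above the untreated level. The tag SUFFCLIP was carried by 183 Lhx1 reads at D6, with 33 to 76 in each library, whereas the 3 untreated libraries held 0 to 3 each and 4 in all. At D4 there were 42 and at D2 8. These reads are not in the PASS tally and make up most of the Lhx1 reads of all tags; the cause of the tag was not tested. Lhx5, with the next highest share of this tag among the 10 genes, had 11 such reads in untreated cells and 7 at D6, and its libraries overlapped.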

How the results depend on the processing

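The alternatives overlap and are not independent of each other. They include fits that left out a library of a day outside the comparison. A gene under the read filter of an alternative gave no value there, as Lhx5 for D2 against D0 when thinned. The 13 called fold changes of the 10 genes gave 348 values under alternatives, of which 339 kept the call and direction, 9 lost the call and 0 turned. The 11 fold changes that were not called gave 289, of which 3 passed the threshold and 6 turned. Those that turned were Pax6 from D2 to D4 with a mapping quality of at least 10 (1.20), Lhx2 from D4 to D6 with a barcode confidence of at least 0.9 (0.09), with libraries thinned to equal depth (1.32) or with a library left out (-0.38 to 0.01), Irx5 from D4 to D6 (-0.52 to 0.14) and Lhx5 from D0 to D6 (-0.73 to 0.06) with a library left out. Counts of genes called for D2 against D0 were 1006, and 1615 without a filter, 569 with a mapping quality of at least 10, 334 when thinned and 655 to 1028 with a library left out. For D4 against D2 they were 290, and 118 when thinned, 454 with limma-trend and 165 to 320 with a library left out. For D6 against D4 they were 785, and 416 by mapping quality, 212 thinned, 444 with limma-trend and 433 to 789 with a library left out. For D6 against D0 they were 3516, and 2334 with at least 120 reads, 2179 by mapping quality, 1223 thinned and 2802 to 3530 with a library left out. Of the 10 genes 2 were called for D4 against D2, but 5 with all tags, 1 when thinned and 1 to 3 with a library left out, and 1 for D6 against D4, but 2 with all tags or with PASS and SUFFCLIP reads. The summed share differed between D4 and D2 by -0.0007552 to 0.01081 points with a library left out, and between D6 and D4 by 0.002413 points with all tags. The D6 minus D4 tail of Pax6 turned as a mean tail (8.324 nt) and its share of tails of 30 to 90 nt changed by -5.473 points, that of Irx5 turned as a mean (11.19 nt; share -4.63 points; -10.03 to 9.616 nt with a library left out), and that of Irx3 with a mapping quality of at least 10 (-1.205 nt; share 0.9056 points; -5.41 to 13.46 nt). No gene was called by tail under any alternative tried. Causes of these shifts were not tested, except that thinning and filters leave fewer reads or genes.

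The labels link replicates of different days only by a number, and they do not say what else that number stands for. The correlation of same-numbered libraries was -0.138 to 0.172, and 9 of 12 libraries correlated best with their own number. With the replicate block 1044, 345, 662 and 3153 genes were called in the 4 comparisons in the order above, and 5, 2, 1 and 5 of the 10 genes. The PASS and SUFFCLIP reads and the alternatives for Lhx1 of all tags were chosen after seeing the data. Depth limits Pax3, Pax7, Msx1 and, at D2, Lhx5.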
